A study of Mus musculus with 10 samples.

Results

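The 38 genes described here encode the machinery by which cells sense oxygen, the targets it switches on, and the enzymes and transporters of glycolysis. They were chosen by symbol as a pathway set, and each of the 38 symbols was found among the 54446 gene identifiers of the count tables. By role they form 5 groups: 6 genes for the hypoxia-inducible factor (HIF) subunits and their oxygen-dependent regulators, 11 hypoxia-induced targets outside glycolysis, 3 glucose and lactate transporters, 10 genes of upper glycolysis and its regulation, and 8 genes of lower glycolysis and lactate dehydrogenase.

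In well-oxygenated cells, prolyl hydroxylases of the Egln family mark the alpha subunits of HIF, and the Vhl protein directs them to degradation. When oxygen is scarce, the alpha subunits persist, pair with Arnt and bind short DNA elements beside genes for blood vessel growth, mitochondrial turnover and glucose breakdown. Glycolysis is also raised by MYC family proteins, which makes it a common trait of MYCN-driven neuroblastoma. Much of this control acts on protein stability and enzyme activity, which counts of RNA do not measure.

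The libraries were made from polyadenylated RNA of whole tumours of TH-MYCN mice, which carry a MYCN transgene under a tyrosine hydroxylase promoter and develop neuroblastoma in sympathetic tissue. All 3 groups share this transgene. Untreated tumours gave 3 libraries (numbered 1, 2 and 3), tumours after 24 h of treatment 3 (numbered 2, 3 and 4), and tumours after 5 days of treatment 4 (numbered 1 to 4). Both treated groups received MLN8237 and AZD6738, 2 kinase inhibitors. MLN8237, or alisertib, blocks Aurora-A, which acts in mitosis, and AZD6738, or ceralasertib, blocks ATR, which responds to stalled replication. Sample titles call this a combination, but "or" stands between the drug names in the design text. The labels give no age, sex or dose and no statement that each library came from its own mouse. A p-value here thus reflects how far the sequenced libraries scatter, which may be technical. The comparisons ask how the tumours' RNA levels at each time differed from untreated tumours and from each other.

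Libraries held 5576926 to 5696436 counts, and values below are normalised read counts (CPM) after TMM scaling, listed in the order of the library numbers. Markers of adrenergic neuroblasts, the cell type of this tumour, had a total of 668 CPM in 5-day library 1, against 1898 to 3009 CPM in the other 9. In that library the sums were 18990 CPM for 8 fibroblast markers (273 to 2945 CPM in the other 9), 6124 CPM for 12 macrophage markers (263 to 700 CPM) and 8136 CPM for 7 adipocyte markers (15.6 to 1047 CPM). Every marker of these 3 lists was highest there. Log2 fold changes of the 3 comparisons are therefore given with and without this library. Of the other 5-day libraries, library 2 also held markers of adrenal cortex (1603 CPM), liver (309.5 CPM) and skeletal muscle (470 CPM), against at most 94.5, 8.07 and 172 CPM elsewhere. The adipocyte markers of 5-day library 2 came to 1047 CPM, the highest sum outside 5-day library 1. Untreated library 3 held kidney tubule markers at 107 CPM, against at most 29.0 CPM elsewhere. Its adipocyte markers came to 768 CPM, against 43.9 and 101 CPM in untreated libraries 1 and 2. In whole tumours, fewer cells of a type and less RNA per cell cannot be told apart.

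None of the 38 genes passed the test in any of the 3 comparisons, with all 10 libraries or without 5-day library 1. Counts were found for 36 genes and 35 were tested. The test was edgeR's quasi-likelihood F test with Benjamini-Hochberg adjustment over all 14956 tested genes (14699 without 5-day library 1), and a gene was called at an adjusted p below 0.05. Of all tested genes, 0.0% were called in each comparison with all libraries. Leaving out 5-day library 1, 0.0136% were called at 24 h against untreated and 0.0% in the other 2 comparisons. At an unadjusted p below 0.05, all 10 libraries gave 0 of the 35 genes for 24 h over untreated (1.76% of all tested genes), 1 for 5 days over untreated (8.4%) and 4 for 5 days over 24 h (6.3%). The counts were 2, 2 and 4 without 5-day library 1, beside 8.1%, 8.52% and 7.76%. With at most 4 genes in any comparison, nothing about the list as a whole is read from these counts.

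DESeq2 with all 10 libraries called none of them either, beside 0.0%, 0.144% and 0.0206% of all tested genes. It gave P4ha1 no p-value in any comparison, so 34 of the 35 were tested there. The single call came from DESeq2 without 5-day library 1, an alternative chosen after the data were seen. It called Pdk1 at 5 days against untreated (log2 fold change 0.81, adjusted p = 0.0227), with 0.395% of all tested genes called higher and 0.524% called in either direction in that fit. At 24 h against untreated and at 5 days against 24 h it called none, beside 0.715% and 0.136%. Not all of the 35 could be called, because DESeq2 gave some of them no adjusted p in each comparison of that fit. At 24 h against untreated these were Egln3, Bnip3, Ankrd37 and Aldoc, and at 5 days against untreated Bnip3, Ankrd37 and Aldoc. Many more lacked an adjusted p at 5 days against 24 h. These were Epas1, Arnt, Egln3, Vhl, Bnip3, Ankrd37, Ndrg1, P4ha1, P4ha2, Kdm3a, Slc2a1, Slc16a3, Pfkfb4, Aldoc, Eno2, Ldhb and Pdk1. The absence of calls there covers only the other genes. Pdk1 had a log2 fold change of 0.54 there (unadjusted p = 0.00843, DESeq2). For Pdk1 at 5 days against untreated, the same libraries gave an adjusted p of 0.243 in edgeR.

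Most intervals were narrow enough to bound the difference. When 5-day library 1 was left out, the 95% interval of the fold change excluded a 2-fold difference in both directions for 29 of 35 genes at 24 h against untreated (75.5% of all tested genes), for 28 at 5 days against untreated (75.4%) and for 28 at 5 days against 24 h (75.8%). The genes outside this bound in all 3 comparisons were Epas1, Egln3, Bnip3, Ankrd37, Aldoc and Ldhb, and Pdk1 and Pfkfb3 joined them in 1 comparison each. With all 10 libraries the bound held for only 22, 17 and 16 genes, beside 60.6%, 58.2% and 58.0% of all tested genes.

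The median log2 fold change of the 35 genes without 5-day library 1 was -0.05 at 24 h against untreated, 0.01 at 5 days against untreated and 0.03 at 5 days against 24 h. The medians of all tested genes were -0.00151, -0.00317 and -0.00235. With all 10 libraries the medians of the 35 genes were -0.06, 0.36 and 0.40, beside -0.01, 0.01 and 0.03 for all tested genes. With 5-day library 1, 31 of 35 genes had a positive log2 fold change at 5 days against untreated, and without it 20 of 35 did. The plot of ratios by library shows that 1 column carries this difference.

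**Figure D1:**
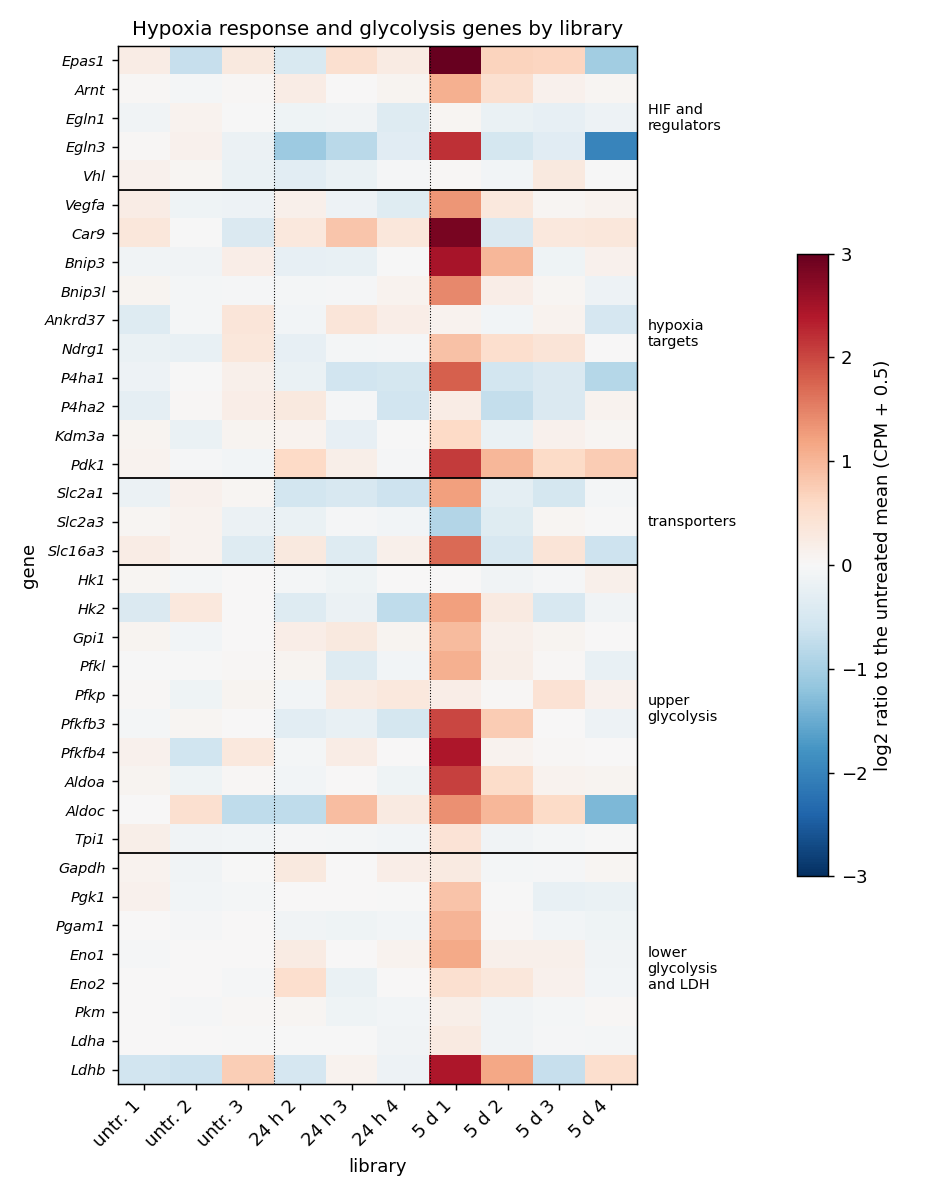
Log2 ratio of each library's CPM to the mean of the untreated libraries, after adding 0.5 CPM, for the 36 genes with counts (rows, by role) in the 10 libraries (columns); the colour scale ends at 3 in both directions. The column of 5-day library 1 is red for most genes, with Epas1 at 279 CPM against at most 49.6 CPM elsewhere, while the other 9 columns are pale for most genes.

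Hif1a, the alpha subunit of HIF-1, was listed at 0 in all 10 libraries, as was Adm, which encodes the vasodilator peptide adrenomedullin. These zeros are not read as absence. B2m, which nearly all nucleated cells express, and G6pdx, the entry enzyme of the pentose phosphate pathway, were listed at 0 in all 10 libraries as well. B2m was chosen for this check after its values were seen. None of the 50-base words of the Hif1a and Adm transcripts occurs at a locus apart from the gene, but genes that overlap it were left out of this search. Hif1a shares exonic bases with Gm49321 on the same strand and Gm15283 on the opposite strand, at most 330 with either.

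Epas1, which encodes the alpha subunit of HIF-2, is typical of endothelial cells and of sympathetic cells. It had 35.9, 19.0 and 37.8 CPM in untreated tumours, 22.4, 43.7 and 36.8 CPM at 24 h, and 279, 49.6, 48.9 and 14.8 CPM at 5 days. The groups overlapped, and the lowest as well as the highest value belonged to the 5-day group. The log2 fold change at 5 days against untreated was 1.66 ± 0.86 (SE; adjusted p = 0.538, edgeR) with all libraries and 0.29 ± 0.50 (adjusted p = 0.906) without 5-day library 1. Endothelial markers summed to 527, 147, 97.7 and 38.0 CPM in the 5-day libraries, in the same order as Epas1, and the 8 markers summed to 68.9 to 159 CPM in the other 6. Their part in the values of Epas1 was not tested.

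Arnt, the shared beta subunit, varied little outside 5-day library 1. Its values were 37.3, 34.8 and 37.3 CPM in untreated tumours, 42.6, 36.7 and 38.9 CPM at 24 h, and 76.6, 51.4, 39.9 and 37.7 CPM at 5 days. All 5-day values lay above all untreated values, but the margin was under 1 CPM for the lowest of them. The log2 fold change against untreated was 0.49 ± 0.23 with all libraries and 0.24 ± 0.13 without 5-day library 1 (SE; adjusted p = 0.538 and 0.651, edgeR), and it was 0.09 when 5-day library 2 was left out too.

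The 2 hydroxylases of the list differed in level and spread. Egln1, the main oxygen sensor of the family, had 121, 140 and 128 CPM in untreated tumours, 118, 121 and 98.4 CPM at 24 h, and 134, 114, 110 and 116 CPM at 5 days. Without 5-day library 1 its log2 fold changes against untreated were -0.20 (95% interval -0.41 to 0.02) at 24 h and -0.19 (-0.41 to 0.02) at 5 days, neither past the test (adjusted p = 0.636 and 0.626). With all libraries they were -0.20 and -0.13. Egln3, a hydroxylase that HIF itself induces, had 5.08, 5.41 and 4.36 CPM in untreated tumours, 2.07, 2.62 and 3.83 CPM at 24 h, and 24.2, 3.27, 3.79 and 0.889 CPM at 5 days. Apart from 5-day library 1, every treated library lay below every untreated one. Its log2 fold changes without that library were -0.79 ± 0.46 at 24 h and -0.89 ± 0.46 at 5 days (SE; adjusted p = 0.687 and 0.630, edgeR), and with all libraries they were -0.80 ± 0.96 and 0.69 ± 0.89. With 291 counts over the 10 libraries, Egln3 was among the least counted genes of the list.

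Vhl, the substrate receptor that recognises hydroxylated alpha subunits, kept between 30.4 and 46.5 CPM in all 10 libraries. It had 41.5, 39.3 and 32.9 CPM in untreated tumours, 30.4, 33.2 and 37.1 CPM at 24 h, and 39.1, 36.0, 46.5 and 37.5 CPM at 5 days. The groups overlapped in each comparison, and 5-day library 1 was not set apart for this gene. Its log2 fold change at 5 days against 24 h was 0.25 ± 0.14 (SE; adjusted p = 0.687, edgeR) without that library and 0.24 ± 0.14 with it.

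Among the hypoxia-induced targets, Pdk1 and P4ha1 stood at opposite ends without 5-day library 1. Pdk1 (GRCm38 chr2:71873224-71903858, plus strand) encodes a kinase that inactivates pyruvate dehydrogenase and so keeps pyruvate out of mitochondrial oxidation. Its values were 25.7, 23.4 and 22.65 CPM in untreated tumours, 36.4, 27.1 and 23.35 CPM at 24 h, and 103, 48.25, 36.1 and 40.9 CPM at 5 days. All 4 values at 5 days exceeded all 3 untreated values, and the lowest of them was close to the highest at 24 h. The log2 fold change at 5 days against untreated was 0.80 ± 0.17 (SE; 95% interval 0.43 to 1.18) without 5-day library 1, with an adjusted p of 0.243 and an unadjusted p of 0.000644 in edgeR. With all libraries it was 1.25 ± 0.36 (adjusted p = 0.538), and without 5-day libraries 1 and 2 it was 0.68 (adjusted p = 0.398).

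P4ha1 (GRCm38 chr10:59323296-59373304, plus strand) encodes a catalytic subunit of the enzyme that hydroxylates prolines of collagen in the endoplasmic reticulum. It had 43.1, 47.8 and 53.5 CPM in untreated tumours, 41.95, 32.0 and 33.45 CPM at 24 h, and 167, 32.9, 35.4 and 26.5 CPM at 5 days. Apart from 5-day library 1, every treated library was below every untreated library. Without that library the log2 fold changes were -0.42 ± 0.15 at 24 h and -0.60 ± 0.15 at 5 days (SE; adjusted p = 0.501 and 0.305, edgeR), with unadjusted p of 0.0159 and 0.00189. With all libraries the 24 h value was -0.43 ± 0.64 and the 5-day value had the other sign, at 0.44 ± 0.60 (adjusted p = 0.756). The sums of the 8 fibroblast markers were 1073, 941 and 2945 CPM in untreated tumours, 1420, 2148 and 2229 CPM at 24 h, and 18990, 1424, 2464 and 273 CPM at 5 days, and their part in the P4ha1 values was not tested. P4ha2, its paralog, ranged from 20.2 to 40.9 CPM with overlapping groups.

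Ndrg1, a stress-induced gene used as a marker of hypoxia, had 16.1, 15.9 and 23.5 CPM in untreated tumours, 15.5, 17.6 and 17.95 CPM at 24 h, and 34.7, 26.4, 24.3 and 18.7 CPM at 5 days. The 5-day libraries lay above those of 24 h, with a gap below 1 CPM between the nearest values. The log2 fold change at 5 days against 24 h was 0.43 ± 0.20 without 5-day library 1 and 0.61 ± 0.24 with it (SE; adjusted p = 0.642 and 0.581, edgeR). Against untreated tumours the groups overlapped.

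Vegfa, the growth factor that draws in blood vessels, had 79.8, 62.7 and 61.7 CPM in untreated tumours, 76.3, 61.65 and 52.4 CPM at 24 h, and 170, 84.8, 71.2 and 73.2 CPM at 5 days. Its 5-day library 1 value was 2.46 times the mean of the other 9 libraries. Without 5-day library 1 its log2 fold change at 5 days against untreated was 0.17 (95% interval -0.16 to 0.50; adjusted p = 0.786, edgeR), and with all libraries it was 0.55 (-0.16 to 1.26; adjusted p = 0.543). The groups overlapped in each comparison once that library was left out.

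The other targets were low or even. Car9, a carbonic anhydrase of the cell surface that is often used to stain hypoxic tumour areas, was too low to test, at 0 to 0.699 CPM in 9 libraries and 4.36 CPM in 5-day library 1. It had 0 counts in untreated library 3 and in 5-day library 2, where 3 counts would be 0.523 and 0.517 CPM. Bnip3 and Bnip3l, receptors for the removal of mitochondria, ranged from 1.55 to 4.31 CPM and from 42.5 to 54.6 CPM in 9 libraries, and had 12.9 and 130 CPM in 5-day library 1. Ankrd37 (1.42 to 2.97 CPM) and the histone demethylase gene Kdm3a (32.7 to 58.9 CPM) overlapped between groups over all 10 libraries.

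**Figure D2:**
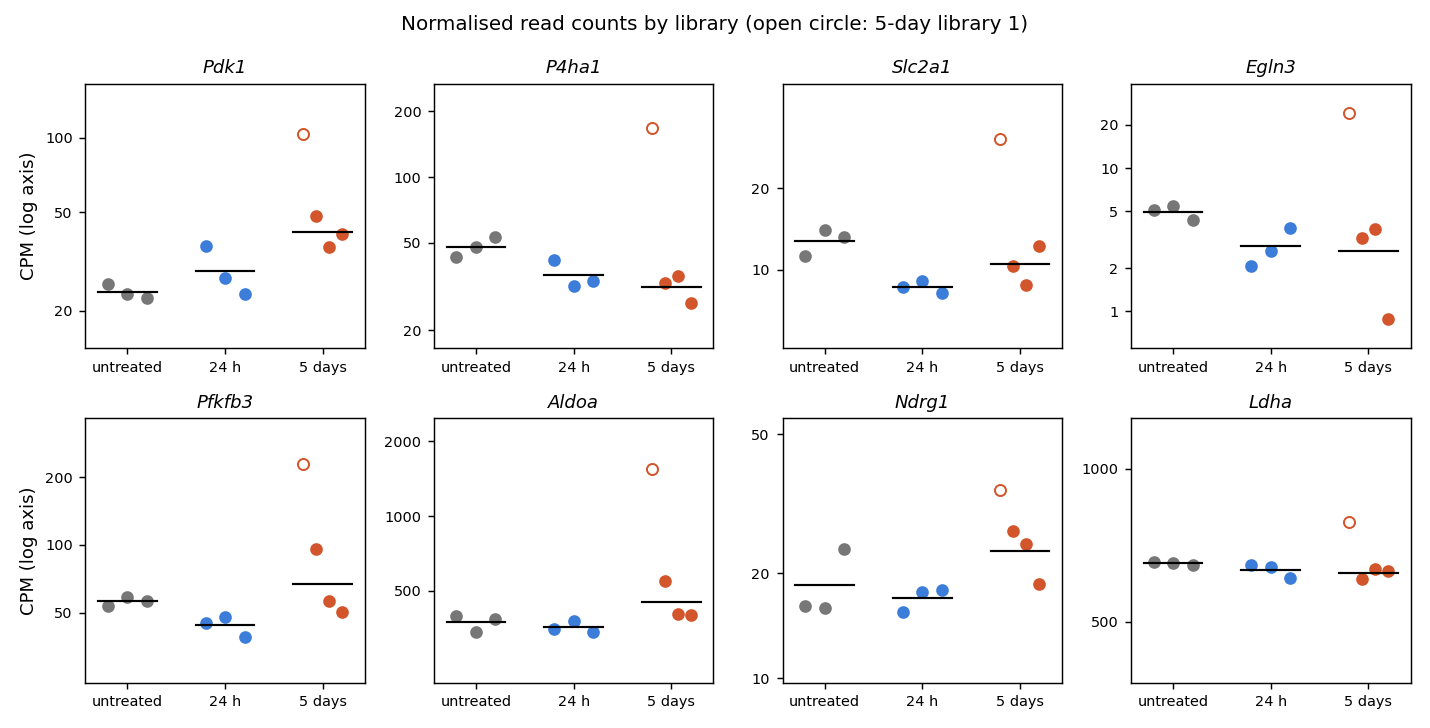
CPM on a log axis for 8 genes, 1 point per library, with the open circle for 5-day library 1 and the line at the mean of each group without that library. Pdk1 points at 5 days (36.1 to 103 CPM) lie above the untreated ones (22.65 to 25.7 CPM), the filled P4ha1 and Egln3 points of treated tumours lie below the untreated ones, and the filled Ldha points differ little, from 606 to 655 CPM.

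Promoter windows of 300 bases that span the transcript start, most of them before it, were read from RefSeq for the mouse assembly GRCm38.p6, and 34 of the 38 genes had one. The core of the HIF element was searched on both strands as ACGTG and as GCGTG, and the E-box of MYC proteins as CACGTG, which holds ACGTG on both strands. ACGTG occurred in 17 of the 34 windows, against 19.7% of 27025 windows of all genes, and GCGTG occurred in 19 (55.9%), against 32.5%. At least 1 of both was found in 26 windows (76.5%), against 43.8%, and CACGTG in 3 (8.8%), against 7.2%. These counts describe the sequence and show no binding. The windows of 4 genes are printed because Pdk1, P4ha1 and Slc2a1 showed the clearest differences without 5-day library 1 and Ldha the smallest spread. Capitals mark ACGTG and GCGTG on either strand, so that CACGT and CACGC are matches on the opposite strand. All 4 genes lie on the plus strand, at chr2:71872974-71873273 for Pdk1, chr10:59323046-59323345 for P4ha1, chr4:119108495-119108794 for Slc2a1 and chr7:46845554-46845853 for Ldha.
Pdk1: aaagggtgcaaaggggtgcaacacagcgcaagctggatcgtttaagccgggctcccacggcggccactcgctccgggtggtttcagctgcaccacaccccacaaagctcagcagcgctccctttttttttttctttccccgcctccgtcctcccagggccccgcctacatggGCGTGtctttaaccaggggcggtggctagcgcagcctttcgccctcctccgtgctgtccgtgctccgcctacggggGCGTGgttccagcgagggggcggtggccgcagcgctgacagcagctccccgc
P4ha1: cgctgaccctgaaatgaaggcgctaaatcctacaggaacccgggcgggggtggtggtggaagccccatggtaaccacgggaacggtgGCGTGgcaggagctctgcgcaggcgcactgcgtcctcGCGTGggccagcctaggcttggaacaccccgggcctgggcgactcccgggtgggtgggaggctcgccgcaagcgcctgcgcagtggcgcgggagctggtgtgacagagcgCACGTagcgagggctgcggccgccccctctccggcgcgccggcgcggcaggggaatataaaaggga
Slc2a1: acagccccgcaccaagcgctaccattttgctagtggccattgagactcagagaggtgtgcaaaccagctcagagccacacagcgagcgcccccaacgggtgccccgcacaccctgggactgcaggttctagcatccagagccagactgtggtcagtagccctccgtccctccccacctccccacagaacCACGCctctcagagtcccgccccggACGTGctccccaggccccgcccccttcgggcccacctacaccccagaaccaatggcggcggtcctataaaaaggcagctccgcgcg
Ldha: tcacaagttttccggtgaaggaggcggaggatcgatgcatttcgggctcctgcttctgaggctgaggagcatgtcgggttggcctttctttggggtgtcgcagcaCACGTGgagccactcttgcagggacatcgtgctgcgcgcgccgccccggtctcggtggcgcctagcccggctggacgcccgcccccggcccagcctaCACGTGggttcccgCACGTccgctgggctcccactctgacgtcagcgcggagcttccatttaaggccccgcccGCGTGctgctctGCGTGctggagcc
The Pdk1 window held 2 GCGTG matches and no ACGTG. That of P4ha1 held 2 GCGTG and 1 ACGTG, that of Slc2a1 1 of each, and that of Ldha 5 ACGTG, counted over both strands, and 2 GCGTG. Both Pdk1, above untreated tumours at 5 days, and P4ha1, below them apart from 5-day library 1, carried the core.

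Glucose enters cells through Slc2a1 and Slc2a3, and lactate leaves through Slc16a3. Slc2a1 (GRCm38 chr4:119108711-119137983, plus strand), the transporter that HIF induces in many tissues, had 11.2, 14.0 and 13.2 CPM in untreated tumours, 8.63, 9.08 and 8.19 CPM at 24 h, and 30.55, 10.3, 8.78 and 12.3 CPM at 5 days. The 24 h libraries lay below all untreated libraries, whereas the 5-day libraries overlapped both. Its log2 fold change at 24 h was -0.56 ± 0.20 without 5-day library 1 (SE; adjusted p = 0.487 and unadjusted p = 0.015, edgeR) and -0.57 ± 0.44 with it (adjusted p = 1.0).

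Slc2a3, a high-affinity transporter typical of neurons, was the only tested gene of the list that was lowest in 5-day library 1. Its values were 81.4, 84.5 and 69.7 CPM in untreated tumours, 68.7, 76.5 and 74.2 CPM at 24 h, and 42.55, 60.8, 81.7 and 77.5 CPM at 5 days. Groups overlapped, and the log2 fold changes without 5-day library 1 were -0.10 at 24 h and -0.10 at 5 days, each with a 95% interval of -0.36 or -0.37 to 0.17. They were -0.10 and -0.26 with all libraries. Slc16a3 had 24.9, 22.9 and 16.0 CPM in untreated tumours, 26.1, 16.1 and 23.9 CPM at 24 h, and 70.0, 15.2, 27.9 and 13.7 CPM at 5 days. It too overlapped, and its log2 fold change at 5 days was -0.17 ± 0.30 without 5-day library 1 and 0.57 ± 0.54 with it (SE; adjusted p = 0.911 and 0.658, edgeR).

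In upper glycolysis, Pfkfb3 and Aldoa had the smallest unadjusted p. Pfkfb3 makes fructose 2,6-bisphosphate, the strongest activator of phosphofructokinase. It had 53.4, 58.7 and 56.1 CPM in untreated tumours, 45.1, 48.0 and 39.0 CPM at 24 h, and 228, 95.5, 56.1 and 50.3 CPM at 5 days. The 24 h values lay below all values of the other groups. Its log2 fold change at 5 days over 24 h was 0.61 ± 0.22 without 5-day library 1 and 1.28 ± 0.48 with it (SE; adjusted p = 0.602 and 0.581, edgeR). It was 0.27 when 5-day library 2 was left out as well. That library held markers of muscle, adrenal cortex, liver and adipocytes, and their part in the Pfkfb3 values was not tested.

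Aldoa, the main aldolase of most tissues and the muscle form, had 397, 341 and 386 CPM in untreated tumours, 351.5, 377 and 343 CPM at 24 h, and 1546, 548, 403 and 399 CPM at 5 days. All 5-day libraries lay above all others, but 5-day libraries 3 and 4 did so by less than 10 CPM. The log2 fold change against untreated was 0.95 (95% interval -0.08 to 1.98; adjusted p = 0.538, edgeR) with all libraries, 0.27 (-0.01 to 0.55; adjusted p = 0.612) without 5-day library 1 and 0.09 without 5-day libraries 1 and 2. The muscle markers came to 470 CPM in 5-day library 2 and to 172 CPM in the fourth 5-day library, against 11.9 to 24.7 CPM in the other 8 libraries. Their part in the Aldoa values was not tested.

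Gpi1, which converts glucose 6-phosphate to fructose 6-phosphate, had 154, 136 and 146 CPM in untreated tumours, 167, 179 and 153 CPM at 24 h, and 281, 162.5, 154 and 146 CPM at 5 days. Its log2 fold change at 24 h was 0.20 (95% interval -0.004 to 0.40; adjusted p = 0.622, edgeR) without 5-day library 1 and 0.19 with it. These values were 0.09 and 0.10 when the counts of its processed pseudogene were added. Hk2, the hexokinase that HIF and MYC induce, had 47.6, 80.7 and 64.8 CPM in untreated tumours, 49.2, 57.3 and 37.8 CPM at 24 h, and 152, 77.5, 46.3 and 59.9 CPM at 5 days. It was among the more variable enzymes, with a coefficient of variation of 25.0% over 9 libraries, whereas that of the housekeeping hexokinase Hk1 was 5.88%. Hk2 values overlapped between all groups.

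The remaining genes of this group did not separate the groups. In the 9 other libraries than 5-day library 1, the phosphofructokinases Pfkl and Pfkp ranged from 117 to 173 CPM and from 114 to 169 CPM, triose phosphate isomerase (Tpi1) from 265 to 325 CPM and Pfkfb4, a relative of Pfkfb3, from 5.76 to 11.3 CPM. Aldoc, the brain aldolase, stayed at 0.178 to 2.93 CPM.

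Lower glycolysis held the most even genes of the list. Over the 9 libraries without 5-day library 1, the coefficient of variation was 2.81% for Ldha, which reduces pyruvate to lactate, 4.45% for Pgam1 and 4.57% for Pkm, the pyruvate kinase gene. Ldha had 655, 653 and 647 CPM in untreated tumours, 647.5, 642 and 610 CPM at 24 h, and 787, 605.5, 636 and 630 CPM at 5 days. Its log2 fold changes without 5-day library 1 were -0.04 (95% interval -0.19 to 0.11) at 24 h and -0.06 (-0.21 to 0.09) at 5 days. For Pkm they were -0.05 (-0.22 to 0.12) and -0.04 (-0.21 to 0.13). With all libraries these values were -0.04 and 0.03 for Ldha and -0.06 and 0.02 for Pkm. Without 5-day library 1, no other gene of the list had a smaller SE in these 2 comparisons. Scaled to exonic length and by counts at the gene itself, Ldha and Pkm were also the highest of the 38 genes in untreated tumours, at 197 ± 1.2 and 193 ± 4.21 CPM per kb (SD, n = 3), followed by Aldoa at 129 ± 10.1 and Tpi1 at 104 ± 12.1 CPM per kb.

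Several of these enzymes have copies at other loci that are nearly identical to the transcript, most of them processed pseudogenes, and counts were listed at the gene and at copies. A copy was taken as another locus with at least 95% identity over at least 300 bases, a limit set after the data were seen. Copies held 93.8 to 95% of the counts of Gapdh and its 92 copies combined, 76.5 to 79.5% for Eno1, 63.2 to 71.0% for Pgk1, 44.1 to 51.2% for Gpi1 and 28.9 to 34.2% for Pgam1, as ranges over the 10 libraries. The share was 20.3 to 26.5% for Bnip3l, 7.41 to 21.7% for Ldhb and 5.74 to 7.62% for Ldha. Not every copy is annotated as a pseudogene. Of the 38010 counts at the Eno1 copies over the 10 libraries, 21690 lay at Eno1b, annotated as protein coding. Among the 92 Gapdh copies, 4 are not annotated as pseudogenes and held 4048 of 76486 counts. For Bnip3, a copy annotated as a long noncoding RNA held 54 of the 71 copy counts. Gapdh is listed at 68.4 to 89.6 CPM, while the sum with its copies was 1300 to 1700 CPM. Whether a read that matches several loci was divided among them or counted at each was not given. Neither value is therefore taken as the level of this transcript.

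**Figure D3:**
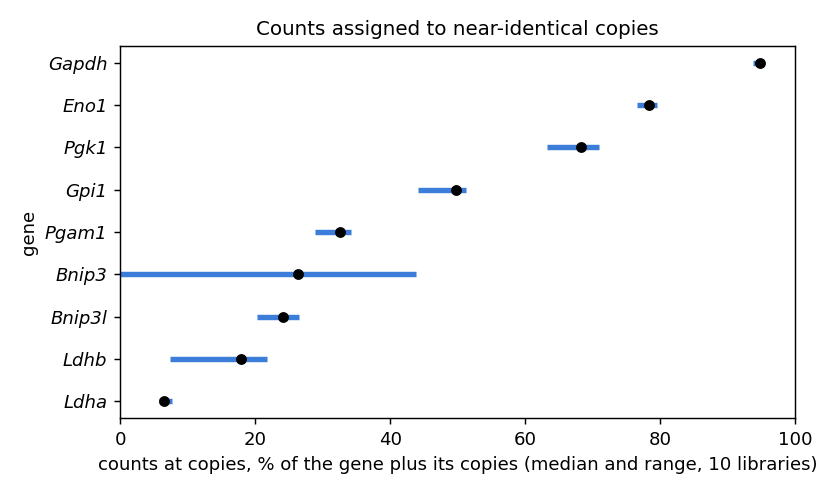
Share of counts assigned to near-identical copies, in percent of the counts of the gene and its copies together, for the 9 genes whose copies hold counts; the point is the median and the bar the range over 10 libraries. Gapdh lies at 93.8 to 95% and Ldha at 5.74 to 7.62%, and the bar of Bnip3 is wide (0 to 43.8%) because few counts were found there.

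Pgk1, which makes the first ATP of glycolysis, is given as an example. Over the 10 libraries, 5197 counts were assigned to the gene on chromosome X, 5618 to Pgk1-rs7 on chromosome 12 and 5440 to Gm5537 on chromosome 3, both annotated as processed pseudogenes and 100% identical to it over the aligned 1255 and 1252 bases. A stretch of the coding sequence, bases 301 to 390 of the reading frame, is printed because the same 90 bases occur at all 3 loci, so that a read within it cannot be placed. It was taken from the GENCODE M21 transcript of Pgk1, with bases in lower case throughout.
Pgk1 coding stretch: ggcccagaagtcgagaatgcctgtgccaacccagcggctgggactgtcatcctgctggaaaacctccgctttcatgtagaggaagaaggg
Pgk1 itself had 97.3, 84.7 and 85.2 CPM in untreated tumours, 89.1, 89.4 and 87.8 CPM at 24 h, and 162, 87.9, 76.4 and 77.85 CPM at 5 days. With its copies the values were 290, 282 and 266 CPM in untreated tumours, 278, 243 and 251 CPM at 24 h, and 513, 283, 264 and 265.5 CPM at 5 days. The log2 fold change at 5 days over untreated was, without 5-day library 1, -0.14 (95% interval -0.35 to 0.07; adjusted p = 0.719, edgeR) for the gene and -0.04 for the sum. With all libraries it was 0.18 for the gene and 0.26 for the sum.

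Gapdh had 79.5, 68.4 and 72.5 CPM in untreated tumours, 89.6, 73.5 and 84.0 CPM at 24 h, and 89.0, 70.8, 71.4 and 76.4 CPM at 5 days. Eno1, the main enolase, had 162, 166 and 165.5 CPM in untreated tumours, 196, 165 and 177 CPM at 24 h, and 360, 183, 183 and 154 CPM at 5 days. Groups overlapped for both enzymes. At 5 days against 24 h, the log2 fold change of Gapdh without 5-day library 1 was -0.18 (95% interval -0.40 to 0.04; adjusted p = 0.678, edgeR), and 0.03 with copies summed. With all libraries these were -0.10 and 0.11, so the sign depended on how copies were treated in both. Eno1 had -0.06 and 0.01 in the same comparison without that library, and 0.29 and 0.36 with it.

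Ldhb, the lactate dehydrogenase subunit of oxidative tissues, was the least even glycolytic enzyme after Aldoc, with a coefficient of variation of 52.3%. It had 8.75, 8.56 and 22.65 CPM in untreated tumours, 9.32, 14.3 and 11.85 CPM at 24 h, and 73.5, 30.15, 8.09 and 19.2 CPM at 5 days. Values scattered within the untreated and the 5-day group, and the groups overlapped in each comparison. Its log2 fold change at 5 days against untreated was 1.29 ± 0.68 with all libraries and 0.52 ± 0.52 without 5-day library 1 (SE; adjusted p = 0.538 and 0.816, edgeR). Pgam1 ranged from 126 to 141 CPM and the neuronal enolase Eno2 from 8.91 to 14.85 CPM in 9 libraries. For Pgam1 all 24 h values (127 to 131.5 CPM) were below all untreated values (136 to 140 CPM), with a log2 fold change of -0.10 ± 0.08 (SE; adjusted p = 0.780, edgeR) without 5-day library 1 and -0.10 ± 0.29 with it.

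Over all members, groups did not overlap for 5 of 35 genes at 24 h against untreated, all of them lower at 24 h (Egln3, P4ha1, Slc2a1, Pfkfb3 and Pgam1), beside 6.74% of all tested genes lower without overlap and 7.15% higher. At 5 days against untreated, 3 genes were higher without overlap (Arnt, Pdk1 and Aldoa; 6.61% of all tested genes) and 4 were lower (Egln1, Egln3, P4ha1 and Ldha; 7.6%). At 5 days against 24 h, Ndrg1, Pfkfb3 and Aldoa were higher (5.25%) and none was lower (6.68%). These counts leave out 5-day library 1. With it the 4 lower genes at 5 days overlapped and the other genes named did not. The shares of all tested genes were then 6.69% lower and 7.11% higher at 24 h against untreated, 4.01% higher and 4.89% lower at 5 days against untreated, and 3.32% higher and 4.35% lower at 5 days against 24 h.

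**Figure D4:**
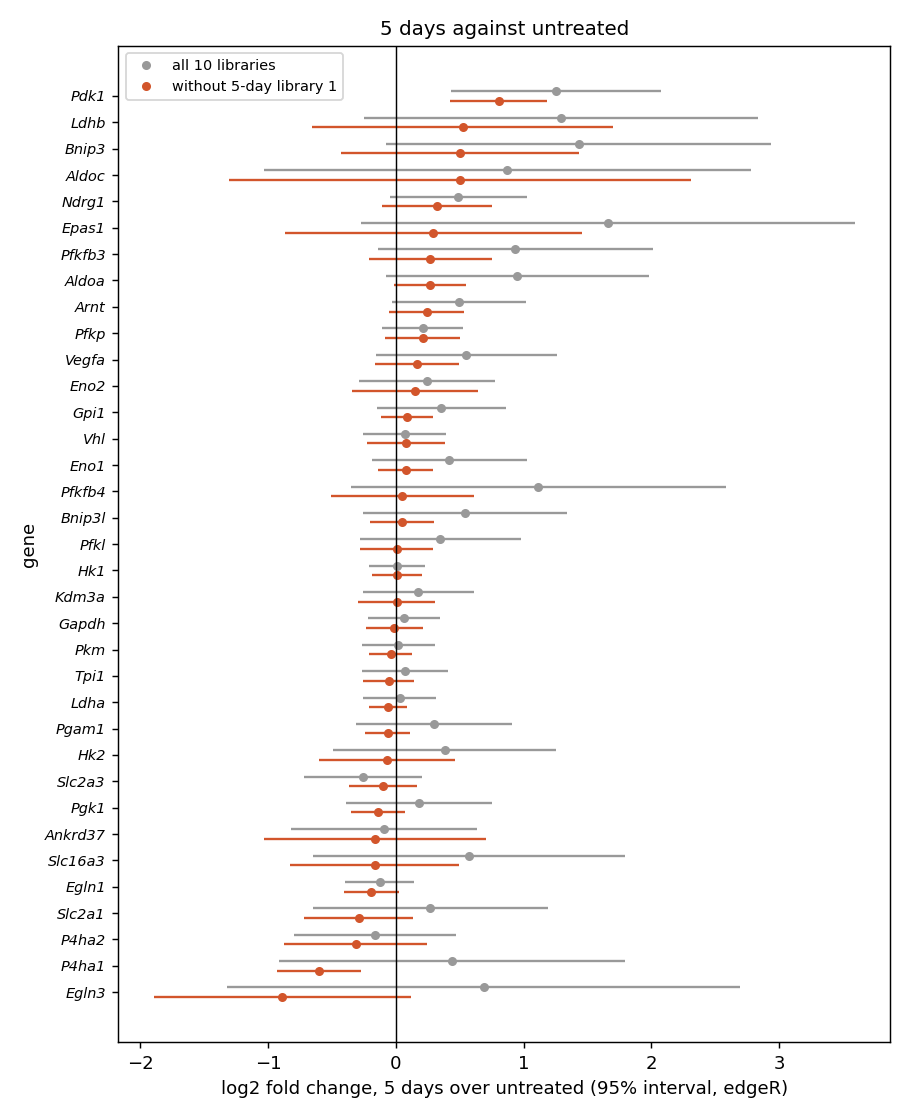
Log2 fold change at 5 days over untreated with its 95% interval (edgeR) for the 35 tested genes, with all 10 libraries in grey and without 5-day library 1 in orange. Without that library, the intervals of Pdk1 (0.43 to 1.18) and P4ha1 (-0.93 to -0.28) do not reach 0 before adjustment, and with all libraries P4ha1 lies at 0.44.

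The share of 1 isozyme in a pair, scaled to exonic length, is given for 10 pairs as a description, and no test was run on it. The first 4 pairs are given over the 9 libraries without 5-day library 1. Neuronal enolase Eno2 made up 5.82 to 7.95% of Eno1 and Eno2 together, Bnip3l 88.2 to 94.5% of the Bnip3 pair, Slc2a3 71.8 to 81.8% of the glucose transporter pair and Pfkp 26.8 to 38.8% of the phosphofructokinase pair. In 5-day library 1 the shares were 4.43% for Eno2, 85.5% for Bnip3l, 40.3% for Slc2a3 and 18.5% for Pfkp. Hk2 made up 67.4% of hexokinase in that library and 34.1 to 53.6% in the other 9. P4ha2 made up 13.3% of its pair with P4ha1 there and 28.8 to 47.2% elsewhere, and Pfkfb4 25.5% of its pair with Pfkfb3 there and 13.2 to 26.5% elsewhere. The share was 16.5% there and 2.61 to 9.50% elsewhere for Ldhb, 19.6% and 1.02 to 5.38% for Egln3 beside Egln1, and 0.226% and 0.0397 to 0.657% for Aldoc beside Aldoa. Counts of copies were not added here, so shares that involve Eno1, Bnip3, Bnip3l, Ldha or Ldhb leave out the copy counts described above.

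In 5-day library 1, 26 of the 35 tested genes had their highest value of the 10 libraries, beside 37.8% of all tested genes. For 14 of the 35 that value was over 2 times the highest of the other libraries, beside 18.2% of all tested genes. Within the 5-day group it lay above the other 3 libraries beyond the 95% limit of Dixon's test for 14 of the 35, beside 17.8% of all tested genes. Relative to the mean of the other 9 libraries it was 8.14 times for Epas1, 6.96 times for Egln3, 6.11 times for Bnip3, 5.45 times for Pfkfb4, 4.98 times for Ldhb, 4.33 times for P4ha1, 4.08 times for Pfkfb3 and 3.92 times for Aldoa. The ratio was smaller for enzymes such as Pkm (1.16 times), Ldha (1.24 times), Gapdh (1.17 times) and Hk1 (1.02 times). Pkm and Ldha still lay above all other libraries there, at 1097 and 787 CPM against at most 1002 and 655 CPM. This is the library in which fibroblast, macrophage and adipocyte markers were highest and neuroblast markers lowest, and their part in these values was not tested.

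Other genes of the same pathways, from lists that do not overlap the 38, gave no call in edgeR either. With all libraries, 10 of 11 further HIF pathway genes, 28 of 28 hypoxia-induced genes, 25 of 28 genes of glycolysis and pyruvate metabolism and 6 of 7 genes of the pentose phosphate pathway were tested. Without 5-day library 1, 23 of the 28 glycolysis and pyruvate genes were tested and the other lists kept their numbers. Genes with an unadjusted p below 0.05 are counted by direction, list by list in that order. With all libraries, no list held one at 24 h against untreated, where 1.14% of all tested genes were higher and 0.615% lower. In the comparison of 5 days with untreated (6.38% higher, 2.03% lower) the lists had 0, 5, 5 and 0 genes higher and 1, 0, 1 and 1 lower. Between 5 days and 24 h (3.96% higher, 2.34% lower) they had 0, 5, 9 and 0 higher and none lower, and their median log2 fold changes were -0.08, 0.57, 1.14 and 0.47.

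Fewer genes were on the higher side at 5 days in the hypoxia-induced and the glycolysis and pyruvate lists without 5-day library 1. At 24 h against untreated the lists had 1, 0, 1 and 0 genes higher (4.56% of all tested genes) and 1, 1, 1 and 1 lower (3.54%). In the comparison of 5 days with untreated they had 0, 2, 3 and 0 higher (4.65%) and 1, 1, 1 and 2 lower (3.86%). Between 5 days and 24 h they had 0, 3, 5 and 0 higher (3.67%) and 1, 0, 0 and 1 lower (4.09%), with medians of -0.00418, 0.06, 0.39 and 0.01. The 4 genes with the smallest p of each list are named.

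Gbe1, the branching enzyme of glycogen synthesis, had 13.5, 10.5 and 11.15 CPM in untreated tumours, 8.11, 11.7 and 9.76 CPM at 24 h, and 115, 27.2, 14.6 and 14.9 CPM at 5 days. The 5-day values exceeded all others, with a log2 fold change at 5 days against 24 h of 2.12 ± 0.73 with all libraries and 0.94 ± 0.27 without 5-day library 1 (SE; adjusted p = 0.581 and 0.602, edgeR). Pgm1, which links glycogen to glycolysis, and Bhlhe40, a repressor of transcription that HIF induces, had 0.52 ± 0.23 and 0.92 ± 0.40 in the same comparison without that library (adjusted p = 0.634 and 0.638), and 1.48 ± 0.61 and 2.67 ± 1.0 with it (adjusted p = 0.581 for both). For Tfrc, the receptor for iron uptake, the log2 fold change at 24 h against untreated was -0.36 ± 0.12 without that library (adjusted p = 0.473) and -0.37 ± 0.30 with it.

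Among pyruvate genes, Pdha1, the subunit of pyruvate dehydrogenase that Pdk1 phosphorylates, had 73.9, 81.9 and 94.4 CPM in untreated tumours, 88.6, 62.7 and 67.95 CPM at 24 h, and 437, 149, 94.6 and 97.2 CPM at 5 days. All 5-day values exceeded all others, by less than 1 CPM for the lowest. Its log2 fold change at 5 days against 24 h was 1.41 ± 0.52 with all libraries and 0.63 ± 0.20 without 5-day library 1 (SE; adjusted p = 0.581 and 0.602, edgeR). Eno3, the muscle enolase, had 37.05 and 15.8 CPM in the 5-day libraries 2 and 4, the 2 libraries with the highest muscle marker sums, against 6.46 to 9.82 CPM elsewhere; Eno3 is itself 1 of those 8 markers. Pfkm had 0.51 ± 0.16 at 5 days against 24 h and Tigar, a phosphatase that slows glycolysis, -0.49 ± 0.17 at 5 days against untreated, both without that library (adjusted p = 0.602 and 0.470). With all libraries these were 0.33 ± 0.25 and -0.59 ± 0.20.

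In the ubiquitin ligase that degrades HIF alpha subunits, Rbx1 and Cul2 had log2 fold changes of -0.27 ± 0.10 at 5 days against untreated and -0.24 ± 0.10 at 24 h against untreated without 5-day library 1 (SE; adjusted p = 0.507 and 0.586, edgeR). The coactivator gene Crebbp had 0.29 ± 0.13 and the hydroxylase gene Egln2 0.19 ± 0.10 at 24 h against untreated (adjusted p = 0.599 and 0.664). With all libraries the values of these 4 genes were -0.40, -0.24, 0.28 and 0.19. In the pentose phosphate pathway, Rpia had 52.2, 58.3 and 52.3 CPM in untreated tumours, 44.4, 45.9 and 50.7 CPM at 24 h, and 37.1, 45.7, 41.6 and 40.7 CPM at 5 days. All treated libraries lay below the untreated ones, and the 5-day log2 fold change was -0.35 ± 0.10 without 5-day library 1 (SE; adjusted p = 0.363) and -0.39 ± 0.11 with it. Pgls had -0.36 ± 0.11 at 5 days against 24 h, Rpe -0.31 ± 0.13 at 24 h against untreated and Tkt 0.21 ± 0.10 at 5 days against 24 h without that library (adjusted p = 0.602, 0.579 and 0.654). With all libraries these were -0.27 ± 0.13, -0.32 ± 0.21 and 0.71 ± 0.36.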

How the data were processed

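Each deposited file lists counts as whole numbers, 1 row per Ensembl gene identifier, for a single library, and 0 columns were left unmatched to a sample. Per the labels' protocols, frozen tumours were extracted with Trizol and libraries made by NEB protocols from polyadenylated RNA. TopHat2 2.1.1, HISAT2 and edgeR are named, with the build mm10 and without roles, per the submitters' processing notes. The counting step, with its annotation and its handling of strand and of multiple alignments, was not given in the sources used here. For the 13 members that share exonic bases with another gene, 12 of them with one on the opposite strand, reads in the shared bases cannot be told apart.

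Symbols, coordinates and exonic lengths came from GENCODE M21 (GRCm38) and promoter windows from RefSeq GRCm38.p6. A second Aldoa identifier, listed at 0, was left out. Copies were found with BLAST 2.17.0. The main model was fitted with edgeR 4.0.16 in R 4.3.3, with filterByExpr (minimum count 10, minimum total 15), TMM and a mean for each group. Robust quasi-likelihood F tests were adjusted by Benjamini-Hochberg across every tested gene and called below 0.05. The SE follows from the F statistic. Variation between libraries, as edgeR's biological coefficient of variation, came to 18.9% without 5-day library 1 and 40.8% with it. TMM gave that library a factor of 0.812, and the others 1.001 to 1.039. A count of 3, up to which a gene with 0 counts may lie, was 0.516 to 0.533 CPM in 9 libraries and 0.655 CPM in 5-day library 1, and covers counting error only.

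Alternatives were DESeq2 1.42.0 and its size factors, no count filter or a mean of at least 5 CPM, fits of the 2 groups compared, a replicate block, and each library left out. Fits that combine the loss of 5-day library 1 with another change, and sums with copies, were added after the data were seen. Members, lists and the rule for giving genes in full (smallest unadjusted p per role group without 5-day library 1) were chosen with earlier results of these data known. Simulated data with known changes, drawn with the spread of 9 libraries, let edgeR recover 55% of 2-fold changes at 24 h over untreated (14519 genes), 64% at 5 days over untreated (14480 genes) and 59% at 5 days over 24 h (14502 genes). Drawn with the spread of all 10, the shares were 8%, 10% and 7% (14810, 14810 and 14809 genes), and 31%, 28% and 35% in DESeq2. False calls in these 3 comparisons numbered 3, 4 and 3 in edgeR and 42, 55 and 33 in DESeq2. With the spread of 9 libraries, DESeq2 recovered 59%, 67% and 64%. Its false calls were then 28, 14 and 31, against 10, 8 and 11 in edgeR. Plots used Python 3.11.15 and matplotlib 3.10.9.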

Additional observations from a re-analysis of the deposited data

Results flagged for a closer look

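In the 5-day group, 15 genes had 1 library so far above the other 3 that the gap exceeded the 95% limit of Dixon's test for 4 samples. The library was 5-day library 1 in all 15. Of the 35 tested genes 14 met the limit this way, beside 17.8% of all tested genes, and Car9 was not tested. Chance flags about 1 in 20 groups of values, and this library stood apart across many genes. Among the HIF genes and their targets, the values there, rounded, were 279 CPM for Epas1, 24.2 CPM for Egln3, 170 CPM for Vegfa, 4.36 CPM for Car9, 130 CPM for Bnip3l and 167 CPM for P4ha1. Slc2a1 had 30.5 CPM. In glycolysis they were 281 CPM for Gpi1, 50.2 CPM for Pfkfb4, 1550 CPM for Aldoa, 379 CPM for Tpi1, 162 CPM for Pgk1, 283 CPM for Pgam1, 360 CPM for Eno1 and 787 CPM for Ldha. Markers of fibroblasts, macrophages and adipocytes were highest in the same library, and their part in these values was not tested. Pdk1, with 103 CPM in that library and 36.1 to 48.25 CPM in the other 3 libraries at 5 days, did not meet this limit.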

How the results depend on the processing

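In edgeR, no alternative called any of the 35 genes, and DESeq2 with all 10 libraries called none of the 34 it tested, which left out P4ha1. DESeq2 without 5-day library 1 called 1 gene at 5 days against untreated, Pdk1 (log2 fold change 0.81); the cause was not tested. The replicate number as a block called 0 genes in each comparison. Deviations of same-numbered libraries correlated at r from -0.388 to 0.248, with 2 of 8 pairs over 0.1. Both were pairs of an untreated and a 24 h library (r = 0.206 and 0.248), where differently numbered pairs had -0.287 to 0.053. Same-numbered pairs with a 5-day library had -0.388 to 0.013. The groups hold few libraries and 5-day library 1 stands apart, so these values cannot decide whether the numbers pair the libraries.

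Of 2555 log2 fold changes under the alternatives, 343 had the other sign than the value with all 10 libraries, and in 331 of these at least 1 of the pair was smaller than its own SE. The other 12, where both exceeded their SE, are given here; this limit was set after the number of sign changes was known. P4ha1 at 5 days against 24 h was 0.87 with all libraries, and -0.18 to 1.13 with each library left out in turn. It was -0.18 without 5-day library 1 and likewise -0.18 with copies summed, -0.17 with DESeq2 size factors, -0.19 with the replicate block and -0.21 without 5-day library 2 too. Leaving out a second library gave -0.26 (24 h library 3), -0.23 (24 h library 4) and -0.28 (5-day library 3). Eno1 at 5 days against 24 h was -0.11 without 5-day library 1 and 24 h library 3. At 5 days against untreated, Pgam1 was -0.12 without 5-day libraries 1 and 2, and Slc16a3 was -0.34 and -0.56 without 5-day library 1 and either untreated library 3 or 5-day library 3. In each of these 12 fits, 5-day library 1 was left out.

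Over the 14 fits with 5-day library 1, Pdk1 at 5 days against untreated lay between 1.2 and 1.42 (adjusted p 0.148 to 0.794), and over the 11 without it between 0.68 and 0.93 (adjusted p 0.0227 to 0.728). For P4ha1 the ranges were 0.14 to 0.70 (adjusted p 0.498 to 0.893) and -0.70 to -0.48 (adjusted p 0.0955 to 0.728). On data simulated with the spread of all 10 libraries, 2-fold differences were recovered in 7 to 10% of cases by edgeR and in 28 to 35% by DESeq2, so the absence of calls does not show that levels were equal. Epas1 as a share of the HIF alpha subunits was not computed, since Hif1a is listed at 0, and leaving out 5-day library 1 changes no value of the other libraries in the sums per role group.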
